A study of Mus musculus with 2 samples.

Results

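The subject is a set of 10 genes that detect foreign or misplaced nucleic acid or receive type I interferon. They are the cytosolic RNA sensors Ddx58, Ifih1 and Dhx58, the cytosolic DNA pathway genes Mb21d1 and Tmem173, the endosomal receptors Tlr3, Tlr7 and Tlr9, and the interferon alpha receptor chains Ifnar1 and Ifnar2. Members were taken by name from the gene list of the deposited matrices, which holds 27998 genes, and all 10 were found. The genes were chosen with earlier results of these data known. Unique molecular identifier (UMI) counts of each member were summed over the cells of each deposited cell type name, separately in each library. The study profiled leukocytes from mouse melanomas by droplet single-cell RNA sequencing. Mice with a knock-in of the human APOE2 or the human APOE4 allele were injected under the skin with YUMM1.7 cells, a mouse melanoma line, and the tumours were taken at day 19. Live CD45+ cells of 6 mice were sorted mouse by mouse and pooled within a genotype, so each genotype is 1 library with no replicate. Both groups carry a human allele, and no group with unmodified mouse Apoe or with the human APOE3 allele was analysed here.

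The RNA helicases encoded by Ddx58 (RIG-I) and Ifih1 (MDA5) bind viral or self RNA in the cytosol and signal through the mitochondrial adaptor MAVS, and Dhx58 (LGP2) modulates them. Mb21d1 encodes cGAS, which makes a cyclic dinucleotide when it meets cytosolic DNA, and Tmem173 encodes STING, which binds that messenger. In endosomes Tlr3 responds to double-stranded RNA, Tlr7 to single-stranded RNA and Tlr9 to DNA rich in unmethylated CpG. These routes lead to type I interferon, which signals through the receptor formed by IFNAR1 and IFNAR2 and induces many genes, Ddx58, Ifih1 and Dhx58 among them. In tumours, STING in dendritic cells is known as a route to interferon and T cell priming.

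Promoter sequence is shown for Ddx58 and Ifih1 because both were higher in the APOE4 library, and for Ifnar1 and Ifnar2 as the receptor pair, whose ratios lay nearer 1. RefSeq windows on build GRCm38.p6, from 250 bases before the annotated start to 50 after it, were matched for 7 of the 10 members. Windows were searched on both strands for the letters GAAA, any 2 bases and GAAA, the core of the interferon-stimulated response element, and for TTCNNNGAA, the core of the gamma-activated site. The first core was present in 3.44% of 32851 windows of the same 300 bases and the second in 8.30%. Of the 7 members, Ddx58 and Ifih1 each held 1 match to the first core, and Ifnar1 and Ifnar2 each held 1 match to the second. The windows of Mb21d1, Tlr3 and Tlr9 held neither set of letters. A match is a description of the letters and not evidence of binding. The 250 bases before the start of Ddx58 (chr4:40239826-40240075, minus strand) and of Ifih1 (chr2:62646256-62646505, minus strand) hold no match, and read:
Ddx58 upstream: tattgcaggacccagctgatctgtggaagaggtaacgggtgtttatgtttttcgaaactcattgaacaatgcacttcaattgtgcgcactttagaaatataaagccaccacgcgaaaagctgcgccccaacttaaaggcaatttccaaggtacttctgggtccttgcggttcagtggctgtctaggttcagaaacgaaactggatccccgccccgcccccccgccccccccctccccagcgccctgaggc
Ifih1 upstream: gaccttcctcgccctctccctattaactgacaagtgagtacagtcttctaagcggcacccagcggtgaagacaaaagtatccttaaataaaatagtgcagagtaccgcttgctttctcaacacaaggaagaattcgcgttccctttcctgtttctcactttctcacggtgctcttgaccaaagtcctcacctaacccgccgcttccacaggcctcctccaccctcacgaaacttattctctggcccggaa
The 4 matches lie in the 30-base stretches that follow, with the matched core in capitals. They are at chr4:40239804-40239833 (minus strand), chr2:62646206-62646235 (minus strand), chr16:91485200-91485229 (plus strand) and chr16:91372559-91372588 (plus strand).
Ddx58 first core: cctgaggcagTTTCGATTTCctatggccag
Ifih1 first core: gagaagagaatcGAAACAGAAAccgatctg
Ifnar1 second core: ggcgggggcgTTCACGGAAggggcggggcg
Ifnar2 second core: tgccaaggccTTCCTGGAAgaagagagtac
Counted from the annotated start as +1, the core began at +3 in Ddx58, on the strand opposite the gene, and at +33 in Ifih1. It began at -5 in Ifnar1 and at -214 in Ifnar2.

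The libraries held 4665 (APOE2) and 5385 (APOE4) annotated cells under 26 names, with 38959426 and 36046103 UMIs and medians of 7160 and 5560 UMIs per cell. A further 398 and 304 barcodes carry no name, and 9 barcodes occur in both libraries. Mouse Apoe was listed at 158 and 87.6 CPM (a gene's UMIs per all UMIs of the same cells, scaled to a fixed total), a count that does not tell the human alleles apart and so does not check the labels. The names were checked against lists of defining markers. The MDSC names (myeloid-derived suppressor cells) were highest on neutrophil markers, Monocytic DCs carried cycling markers beside monocyte and cDC2 markers, and Diverse mixed T cell and myeloid markers. Of its scores relative to the other names, that of Skin resident Mø was highest on the melanoma list, at 6.44 in APOE2 and 5.72 in APOE4. This came through Mitf alone: Mlana, Pmel, Dct, Tyr, Tyrp1 and Sox10 were at 0 in that name in both libraries. Mast cells scored 7.29 on the same list in APOE2. The monocyte or macrophage score of Skin resident Mø was 0.177 and 0.174, and it is counted among the monocyte and macrophage names by its label only. Names with fewer than 50 cells in either library are described only where said, which leaves 19 names. With 1 library per genotype no test between genotypes exists: ratios are APOE4 over APOE2 CPM, and their 95% intervals cover counting error only, not differences between mice or between library preparations.

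The members had different homes among the 19 names, and 8 of the 10 had their highest level under the same name in both libraries. Monocytes 2 held the highest level of Ddx58, Ifih1 and Dhx58. Ki67+ CD8+ T cells held the highest level of Mb21d1, cDC 1 that of Tlr3, and pDCs (plasmacytoid dendritic cells) those of Tlr7, Ifnar1 and Ifnar2. Tmem173 peaked in CD4+ T cells in the APOE2 library and in Monocytes 2 in the APOE4 library, and Tlr9, on few UMIs, in Monocytes 2 and in pDCs. Most neighbours in the order of the 19 names were not apart: of 18 neighbouring pairs per gene and library, between 0 (Tlr9) and 5 (Ddx58, APOE4) had an interval of their ratio above 1.

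**Figure D1:**
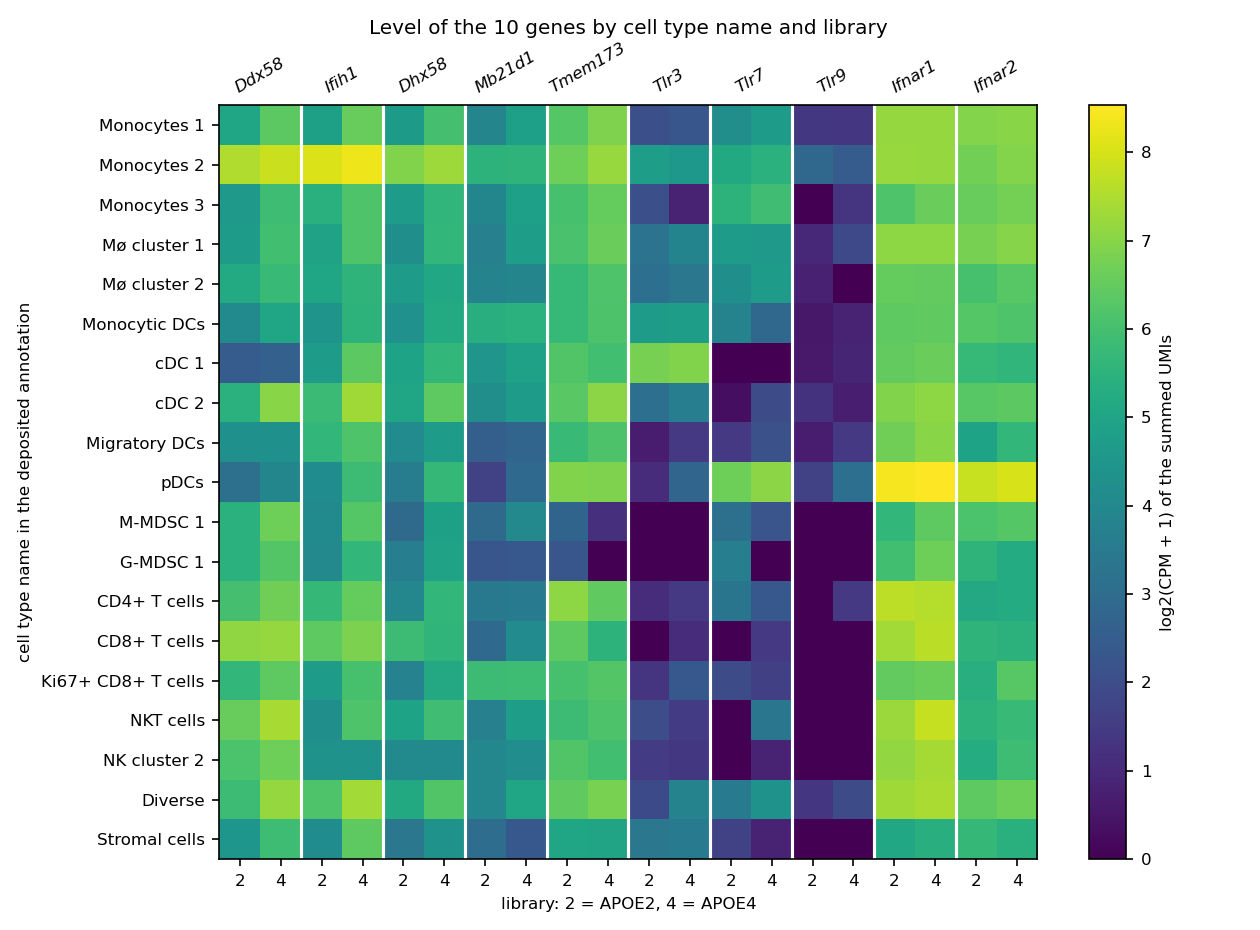
Levels of the 10 genes as log2(CPM + 1) of the summed UMIs (colour), with the 19 cell type names in rows and the APOE2 (2) and APOE4 (4) libraries in adjoining columns of each gene. Monocytes 2 is brightest for the 3 RNA sensors, cDC 1 for Tlr3, and pDCs for Tlr7, Ifnar1 and Ifnar2.

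Ddx58 (chromosome 4, 40203773 to 40239828) was the RNA sensor with the widest spread between cell types. In Monocytes 2 it was measured at 183 CPM (289 UMIs) in the APOE2 library and 232 CPM (901 UMIs) in the APOE4 library. In cDC 1 it was close to absent, at 4.62 CPM (9 UMIs) and 5.16 CPM (6 UMIs). CD8+ T cells stood near the top, at 136 and 144 CPM, and pDCs near the bottom, at 7.86 and 14.1 CPM. Among names with few cells, M-MDSC 2 reached 417 CPM (26 UMIs in 36 cells) and 462 CPM (166 UMIs in 190 cells), and NK cluster 1 reached 277 and 337 CPM.

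Ifih1 (chromosome 2, 62595798 to 62646255) shared the peak of Ddx58 and not its low point in cDC 1. Monocytes 2 held 267 CPM (423 UMIs) and 321 CPM (1248 UMIs), and 74.3% and 78.7% of its cells had a UMI. In cDC 1, where Ddx58 was near 0, Ifih1 was at 25.1 and 83.4 CPM. NK cluster 2 was among the lowest, at 19.9 and 19.8 CPM, while its Ddx58 level was 67.9 and 99.2 CPM. As a share of the UMIs of both genes, Ddx58 made up 15.5% (95% Clopper-Pearson interval 7.35 to 27.4) and 5.83% (2.17 to 12.2) in cDC 1. In NK cluster 2 that share was 77.3% (67.7 to 85.2) and 83.3% (78.6 to 87.4), and in Monocytes 2 it was 40.6% and 41.9%. The intervals of cDC 1 and NK cluster 2 do not overlap in either library.

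Dhx58 (chromosome 11, 100694884 to 100704271) was at 119 and 153 CPM in Monocytes 2 and at 6.80 and 27.6 CPM in M-MDSC 1. It overlaps an antisense gene, Dhx58os, over 141 exon bases. Its level across names and libraries went most closely with Eif2ak2 (Pearson r = 0.89), Rnf213 (0.88) and Ifih1 (0.88). For Ifih1 the closest genes were Ifit2 (0.92), Eif2ak2 (0.89) and Dhx58, and for Ddx58 they were Gbp7 (0.92), Rtp4 (0.88) and Gm4955 (0.86). These correlations are over 38 points, the 19 names in both libraries, on log2(CPM + 10). The points share libraries and depth, and 8992 genes were compared. Between Ddx58 and Ifih1 themselves r was 0.58.

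All 3 RNA sensors were higher in the APOE4 library. Over all annotated cells Ddx58 was at 41.5 CPM (1618 UMIs) and 106 CPM (3818 UMIs), a ratio of 2.55 (2.41 to 2.70). Ifih1 was at 44.6 and 117 CPM, a ratio of 2.62 (2.48 to 2.78). Dhx58 was at 26.6 and 60.9 CPM, a ratio of 2.29 (2.13 to 2.47). With Tlr9 these made 4 of 10 members at least 1.5-fold higher over all cells, where 9.05% of 12730 genes with at least 50 UMIs were that much higher and 8.14% that much lower.

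The higher level was seen within cell types and not in the pooled sum alone. Among names with at least 20 UMIs of the gene, the Ddx58 ratio was above 1 in 18 of 18, from 1.00 in Migratory DCs upward, with the interval above 1 in 14. Among 2025 genes measured in all 19 names, 3.06% had an interval above 1 in at least 14 of them. Those genes had at least 20 UMIs in every name and the RNA sensors in 18, so the shares are a rough guide. For Ifih1 the ratio was above 1 in 17 of 18 names and its interval in 16, against 2.17% of genes with at least 16. For Dhx58 the counts were 17 and 13 of 18, against 3.85% of genes with at least 13. No interval of these 3 genes lay below 1.

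The size of the ratio differed between names. In cDC 2, Ddx58 was at 42.4 CPM (183 UMIs) and 129 CPM (396 UMIs), a ratio of 3.03 (2.54 to 3.64), and Ifih1 had a ratio of 2.86 (2.45 to 3.36) and Dhx58 2.71 (2.20 to 3.36). The cDC2 markers themselves were lower in the APOE4 cells of that name, at 3054 CPM summed in APOE2 and 1441 in APOE4, while monocyte or macrophage markers were at 1660 and 1857 CPM. The part of those markers in the cDC 2 ratios was not tested. Monocytes 1 had ratios of 2.55, 3.31 and 2.62 for Ddx58, Ifih1 and Dhx58. In Monocytes 2, which had the highest levels of the 19 names in both libraries, they were 1.27 (1.11 to 1.46), 1.20 (1.08 to 1.35) and 1.29 (1.09 to 1.53). In pDCs, Dhx58 was at 11.2 CPM (10 UMIs) and 50.6 CPM (86 UMIs), a ratio of 4.51 (2.34 to 9.74). In the pDCs under 5% mitochondrial UMIs the ratio was 0.724, so no direction is read from the pDC ratio. That filter left out most pDCs, whose median mitochondrial percent was 6.73 in APOE2 and 6.05 in APOE4. The largest Ifih1 ratio was in Stromal cells, a name outside the leukocytes, at 16.8 CPM (23 UMIs) and 83.9 CPM (102 UMIs), or 5.01-fold (3.16 to 8.25). CD8+ T cells were at the other end: their ratios were 1.05 (0.796 to 1.41) for Ddx58, 1.38 (0.976 to 2.01) for Ifih1 and 0.831 (0.530 to 1.34) for Dhx58. NK cluster 2 had Ddx58 at 1.46 (1.12 to 1.92) and Ifih1 at 0.996 (0.592 to 1.73).

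**Figure D2:**
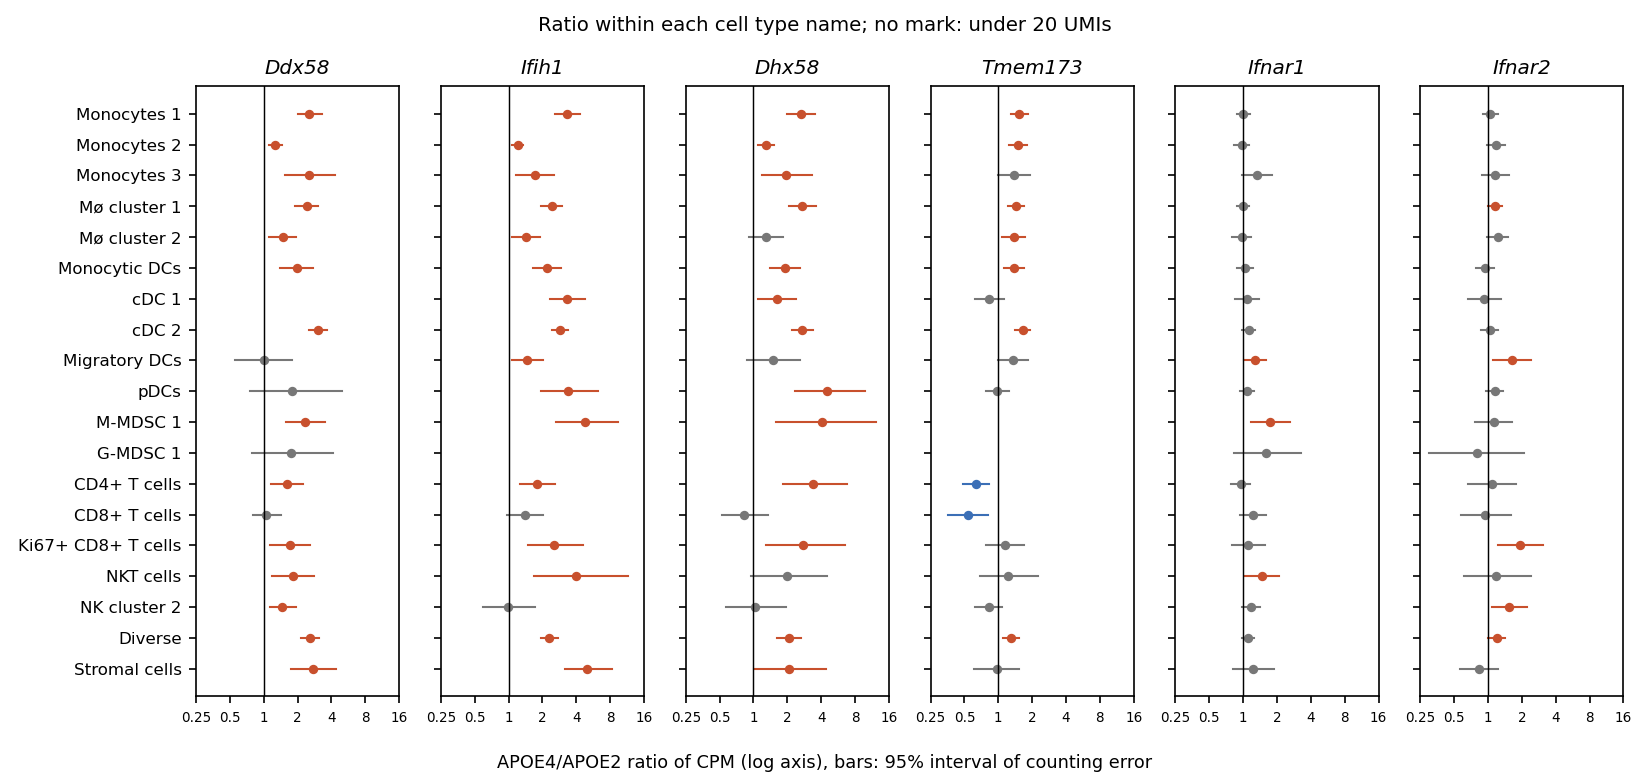
APOE4/APOE2 ratio of CPM (log axis) within each of the 19 names for 6 of the genes, with bars for the 95% interval of counting error. Orange marks an interval above 1, blue an interval below 1 and grey an interval that includes 1. Ddx58, Ifih1 and Dhx58 lie to the right of 1 in nearly every name, the receptor chains lie close to 1, and Tmem173 lies below 1 in CD4+ T cells and CD8+ T cells.

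The shares of the names differed as well as the levels behind the pooled ratios of the RNA sensors. The share of cells named Monocytes 2 was 4.42% in APOE2 and 9.77% in APOE4, and that name held 17.9% and 23.6% of all Ddx58 UMIs. With every name given the same weight in both libraries, the ratios were 1.61 for Ddx58, 1.87 for Ifih1 and 1.75 for Dhx58. With APOE2 levels kept and only the share of UMIs per name changed to that of APOE4, they were 1.56, 1.47 and 1.33. With APOE2 shares kept and only the levels changed, they were 1.95, 2.10 and 1.98. Leaving out Monocytes 2, M-MDSC 2 and NK cluster 1, a choice made after the data were seen, gave 2.46, 2.50 and 2.17. Levels within names and the shares of the names both differed in the direction of the pooled ratio. The names are an annotation of these same cells, and Monocytes 2 was both highest in these genes among the 19 names and more numerous in APOE4. A level that goes with the name a cell was given would count here as make-up. Level and make-up therefore cannot be told apart by this split.

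**Figure D3:**
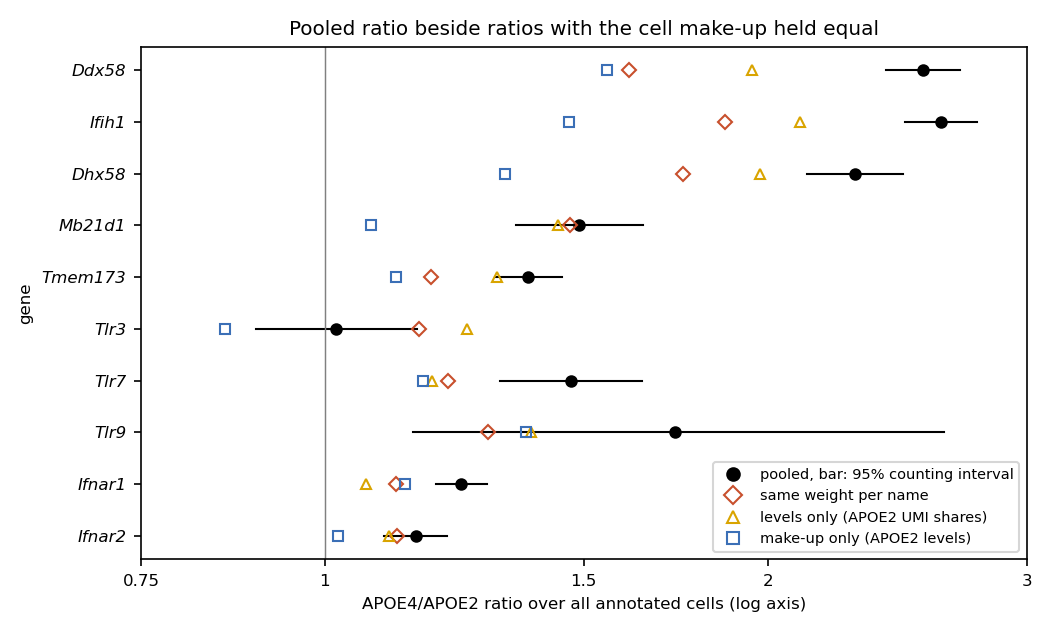
APOE4/APOE2 ratio over all annotated cells (log axis) for each of the 10 genes: pooled with its 95% counting interval, with the same weight per name, with levels alone changed, and with make-up alone changed. For the 3 RNA sensors all 4 values lie above 1, while for Tlr3 the make-up value is 0.856 and the levels value 1.25.

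Mb21d1 (chromosome 9, 78430526 to 78443237, listed as Cgas in GENCODE) was, among the 19 names, highest in 2 that carry cycling markers and in Monocytes 2. Ki67+ CD8+ T cells held 56.6 CPM (40 UMIs) and 57.4 CPM (56 UMIs), and Monocytic DCs 41.1 and 42.3 CPM, with a UMI in 48.5% of APOE2 cells. Monocytes 2 held 44.9 and 46.3 CPM, not apart from either by its interval. The lowest level was in pDCs in the APOE2 library, at 2.25 CPM (2 UMIs), and in Stromal cells in the APOE4 library, at 4.11 CPM (5 UMIs). The closest genes across names were Sass6 (r = 0.80), Clic1 (0.73) and Cbfb (0.73). Sass6 encodes a protein of centriole duplication.

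Over all cells Mb21d1 was at 17.8 CPM (693 UMIs) and 26.5 CPM (955 UMIs), a ratio of 1.49 (1.35 to 1.64), and 1.47 with equal weights. Its ratio was above 1 in 13 of 13 names with enough UMIs, with the interval above 1 in 4. Of the 2025 genes, scored in 19 names and not 13, 30.8% had at least 4, so the 2 counts are not like for like. Those 4 were Diverse (2.23, 1.52 to 3.34), Mø cluster 1 (2.19, 1.54 to 3.12), Monocytes 1 (1.32 to 2.93) and cDC 2 (1.44, 1.04 to 2.0). In the 3 names with the highest levels the ratio was 1.01 to 1.03.

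Tmem173 (chromosome 18, 35733679 to 35740554) was broadly measured and nearly missing from M-MDSC 1 and G-MDSC 1, which carry neutrophil markers. M-MDSC 1 held 5 UMIs in 515 cells (5.67 CPM) and 1 UMI in 453 cells (1.25 CPM), and G-MDSC 1 held 1 UMI and 0 UMIs. The 0 in 126 G-MDSC 1 cells allows a level of up to 12.4 CPM at this depth. All MDSC names pooled held 14 UMIs (9.62 CPM) in APOE2 and 5 UMIs (3.15 CPM) in APOE4. The remaining UMIs therefore lay in the other MDSC names, and the near absence is not shown for those. After thinning to 1500 UMIs per cell, 0.649% and 0% of M-MDSC 1 cells had a UMI (the 0 allows up to 1.06%), against 12.2% and 19.3% of cDC 2 cells and 20.7% and 14.3% of pDCs. The closest genes across names were Commd4, Tmem160 and Larp1, each at r = 0.90. With log2(CPM + 1) in place of log2(CPM + 10), Tmem160 came at place 134.

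The genotype ratio of Tmem173 lay above 1 in cDC 2 and most monocyte and macrophage names and below 1 in CD4+ and CD8+ T cells. Over all cells it was 65.6 CPM (2554 UMIs) and 90.2 CPM (3250 UMIs), a ratio of 1.38 (1.31 to 1.45). cDC 2 held 80.1 CPM (346 UMIs) and 131 CPM (405 UMIs), a ratio of 1.64 (1.42 to 1.90), and the 5 names Monocytes 1, Monocytes 2, Monocytes 3, Mø cluster 1 and Mø cluster 2 had ratios from 1.37 to 1.54, of which Monocytes 3 had an interval that includes 1 (0.999 to 1.90). The ratio was 0.832 (0.617 to 1.11) in cDC 1 and 0.979 (0.770 to 1.25) in pDCs. CD4+ T cells held 135 CPM (121 UMIs) and 85.6 CPM (103 UMIs), a ratio of 0.635 (0.484 to 0.833). CD8+ T cells held 83.5 CPM (38 UMIs) and 44.7 CPM (80 UMIs), a ratio of 0.535 (0.359 to 0.809). The share of cells with a UMI went the same way: 35.9% and 27.4% of CD4+ T cells, and 25.7% and 16.1% of CD8+ T cells. After thinning these shares were 19.7% and 13.4%, and 10.8% and 7.84%. Ki67+ CD8+ T cells (1.15, 0.784 to 1.70) and NKT cells (1.23, 0.693 to 2.26) had intervals that include 1. In all, 7 of 17 names had an interval above 1 (14.0% of the 2025 genes, scored in 19 names, had at least 7) and 2 an interval below 1.

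Other markers also differed in these T cell names. In CD8+ T cells the summed T cell markers were at 4041 CPM in APOE2 and 5044 in APOE4, with 5 of 8 listed genes in the files, NK cell markers at 866 and 1697, and monocyte or macrophage markers at 1462 and 2250. In CD4+ T cells the monocyte or macrophage markers were at 1077 and 1379 CPM. Their part in the Tmem173 ratios was not tested.

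Tlr3 (chromosome 8, 45395665 to 45411080) was concentrated in cDC 1, the dendritic cells specialised in cross-presentation. That name held 109 CPM (212 UMIs) and 119 CPM (138 UMIs), 4.10 times (2.93 to 5.85) and 4.59 times (3.38 to 6.28) the next name in the order. It held 40.9% and 28.3% of all Tlr3 UMIs with 5.00% and 3.23% of all UMIs. A UMI was found in 61.1% and 64.8% of its cells, and in 10.5% (5.99 to 16.7) and 17.6% (10.4 to 27.0) of cells thinned to 1500 UMIs. As a background, thinned CD8+ T cells had a Tlr3 UMI in 0% and 0.424% and NK cluster 2 in 0% and 0.324%, where the untouched shares were 0% and 0.419%, and 0.935% and 0.634%. The median depth of cDC 1 was 13091 and 12262 UMIs per cell, and that of CD8+ T cells 3530 and 3456. Monocytes 2 and Monocytic DCs formed a second tier at 22.4 to 26.5 CPM. The closest genes across names were Ifi205 (r = 0.85), Sept3 (0.82) and Gatm (0.81).

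Tlr3 was the member with the smallest pooled genotype ratio, at 13.3 CPM (518 UMIs) and 13.5 CPM (488 UMIs), or 1.02 (0.898 to 1.15). Within cDC 1 the ratio was 1.09 (0.874 to 1.36). The share of cells under that name was 3.09% in APOE2 and 1.69% in APOE4, and the ratio from make-up alone was 0.856 beside 1.25 from levels alone. The exception among names was Diverse, at 2.74 CPM (7 UMIs) and 13.2 CPM (44 UMIs), a ratio of 4.81 (2.15 to 12.7). After thinning, Tlr3 in Diverse turned to 0.623, on few UMIs.

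**Figure D4:**
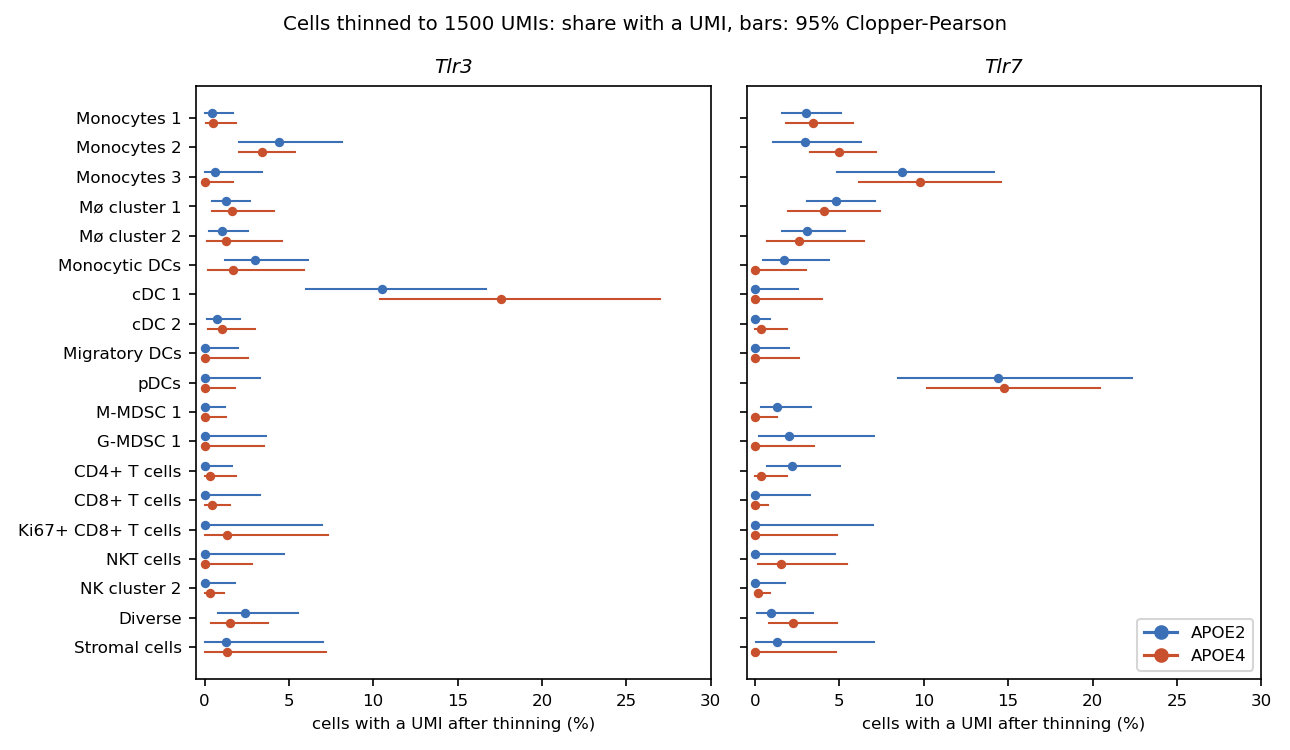
Share of cells (%) with at least 1 UMI of Tlr3 (left) and Tlr7 (right) after every cell was thinned to 1500 UMIs, for the 19 names in the APOE2 (blue) and APOE4 (orange) libraries, with 95% Clopper-Pearson bars. cDC 1 stands out for Tlr3 at 10.5% and 17.6%, and pDCs for Tlr7 at 14.4% and 14.8%.

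Tlr7 (chromosome X, 167304929 to 167330558) had the opposite home among dendritic cells. pDCs, the cells known for Tlr7-driven interferon alpha, held 99.9 CPM (89 UMIs) and 130 CPM (221 UMIs), and cDC 1 held 0 UMIs in 144 and in 91 cells. With 3 counts as the limit of a 0, cDC 1 was below 2.10% and 3.30% of thinned cells, against 14.4% and 14.8% of thinned pDCs. Monocytes 3 came next, at 44.4 and 59.8 CPM, with a UMI in 22.5% and 27.5% of cells (8.70% and 9.77% thinned). CD8+ T cells and NK cluster 2 had Tlr7 in at most 0.419% of untouched cells. The closest genes were Tom1 (r = 0.87), Ifnar2 (0.84) and Lair1 (0.84).

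Over all cells Tlr7 was at 14.4 CPM (561 UMIs) and 21.2 CPM (763 UMIs), a ratio of 1.47 (1.32 to 1.64). With equal weights per name the ratio was 1.21, and in thinned cells it was 1.00 (110 and 129 UMIs). In pDCs it was 1.30 (1.01 to 1.68), and the share of cells named pDCs was 2.38% in APOE2 and 3.81% in APOE4. Summed over the 4 dendritic cell names, Tlr7 was 3.16-fold higher (2.47 to 4.06) on 93 and 234 UMIs, and 1.37-fold higher with equal weights per name, where make-up alone gave 2.33. Monocytic DCs went the other way, at 13.1 CPM (56 UMIs) and 6.16 CPM (15 UMIs), a ratio of 0.471 (0.248 to 0.845). The monocyte or macrophage marker score of that name was 1.74 in APOE2 and 1.11 in APOE4, and its part in the ratio was not tested.

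Tlr9 (chromosome 9, 106222598 to 106226883) was too sparse for most comparisons, with 40 and 64 UMIs in all. Monocytes 2 gave 10 and 18 of these and pDCs 2 and 13. Its pooled ratio of 1.73 (1.15 to 2.64) was 1.29 with equal weights and 0.513 in thinned cells, where 10 and 6 UMIs were left, so no direction is read from it. CD8+ T cells, both NK names and every MDSC name held no Tlr9 UMI in either library.

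Ifnar1 (chromosome 16, 91485238 to 91507441) and Ifnar2 (chromosome 16, 91372783 to 91405589) lie on the same chromosome and were present in all 19 names. In pDCs, Ifnar1 was at 342 CPM (305 UMIs) and 370 CPM (628 UMIs), 1.69 and 1.67 times the next name, and Ifnar2 was at 223 CPM (199 UMIs) and 256 CPM (435 UMIs), 1.83 and 2.0 times the next. A UMI of Ifnar1 was found in 84.7% and 88.3% of pDCs. Below pDCs the chains followed different orders. Ifnar1 was next highest in T cell names, such as CD4+ T cells at 203 and 193 CPM, where Ifnar2 was at 34.5 and 37.4 CPM. Ifnar2 was next highest in Monocytes 1, at 122 and 128 CPM. As a share of the UMIs of both chains, Ifnar1 made up 85.4% (80.0 to 89.9) and 83.8% (78.9 to 87.9) in CD4+ T cells. The share was 54.2% and 53.2% in Monocytes 1, and 41.7% and 52.7% in M-MDSC 1. Ifnar2 overlaps Gm21970 on the same strand over 315 exon bases, which the counting could split. Across names r between the chains was 0.39. Ifnar2 went most closely with Lair1 (0.93), B3gnt8 (0.91) and Irf2bp2 (0.88), and Ifnar1 with Ppm1h (0.83), Tagap (0.81) and 2310035C23Rik (0.80).

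In the pooled sums the receptor chains had the ratios nearest 1 after Tlr3. Ifnar1 was at 116 CPM (4525 UMIs) and 144 CPM (5183 UMIs), a ratio of 1.24 (1.19 to 1.29), and Ifnar2 at 79.9 CPM (3112 UMIs) and 92.1 CPM (3320 UMIs), a ratio of 1.15 (1.10 to 1.21). With equal weights per name both were 1.12 and Tlr3 was 1.16, and in thinned cells the chains were 1.20 and 1.13. The interval lay above 1 in 3 of 19 names for Ifnar1 and 5 of 19 for Ifnar2, counts that 40.8% and 24.0% of the 2025 genes reach. For Ifnar1 these were M-MDSC 1 (1.75, 1.18 to 2.62), NKT cells (1.47, 1.05 to 2.08) and Migratory DCs (1.27, 1.02 to 1.59). In Monocytes 1, Mø cluster 1 and Mø cluster 2, the ratios of the RNA sensors were 1.29 to 3.31 and those of Ifnar1 0.968 to 1.00. The lowest of the former, Dhx58 in Mø cluster 2, had an interval of 0.912 to 1.81, and Ifih1 there was 0.944 in thinned cells. In Monocytes 2 the RNA sensors were at 1.20 to 1.29 and Ifnar1 at 0.971 (0.832 to 1.14). In Monocytes 3 the RNA sensors were at 1.70 to 2.53 and Ifnar1 at 1.32 (0.975 to 1.80). The largest Ifnar2 ratio was in Ki67+ CD8+ T cells, 1.92 (1.24 to 3.06).

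By class, the count of members past 1.5-fold varied widely. In the 6 monocyte and macrophage names, 7 of 10 members were at least 1.5-fold higher, where 7.24% of genes were and 12.6% were that much lower. The 3 RNA sensors were at 2.64, 2.85 and 2.67, Mb21d1 at 2.05 and Tmem173 at 1.75. Tlr7, at 22.3 and 33.5 CPM, was just past the threshold and Tlr3, at 8.35 and 12.5 CPM, just short of it, and Tlr9 was at 1.78 (1.00 to 3.20). With equal weights per name, 3 of 10 were past 1.5-fold: Ddx58, Ifih1 and Dhx58 were at 1.63, 1.54 and 1.66, Mb21d1 at 1.46, Tmem173 at 1.47, Tlr7 at 1.23, Tlr9 at 1.03 and Tlr3 at 1.07. Of 10415 genes tested, 443 were then that much higher and 598 that much lower. Within this class Monocytes 2 made up 206 of 1734 cells in APOE2 and 526 of 1557 in APOE4. In the 4 dendritic cell names, 4 of 9 members with enough UMIs were past 1.5-fold (background 8.84% higher, 5.38% lower). In the 4 MDSC names, 4 of 5 were (10.7% higher, 7.96% lower), led by Ifih1 at 5.40 (3.85 to 7.76), or 2.30 with equal weights. In the 3 T cell names, 3 of 7 were higher and Tmem173 was lower at 0.592 (0.484 to 0.726), against 5.9% of genes higher and 5.96% lower. In the 2 NK names, Ifih1 at 1.82 (1.29 to 2.61) was the 1 of 7 past 1.5-fold (8.29% higher, 4.12% lower), and without NK cluster 1 it was 0.996 (0.592 to 1.73). At a 2-fold threshold the count was 4 in the monocyte and macrophage names and 0 in the T cell and NK names. In the dendritic cell names Ddx58, Ifih1, Dhx58 and Tlr7 stayed past 2-fold. In the MDSC names Ddx58, Ifih1 and Dhx58 did, and Ifnar1, at 1.53, did not. With equal weights per name, of these only Ifih1 stayed past 2-fold in the MDSC names. Ddx58 was then at 1.53 and Dhx58 at 1.73 (0.935 to 3.20). Tlr7 in the dendritic cell names was then at 1.37. The share of all genes past 2-fold was not counted, so these counts have no background beside them.

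Other genes of the pathway were read in the 6 monocyte and macrophage names from lists chosen with earlier results of these data known. Ratios are of the pooled sums of the class unless said otherwise. The median log2 ratio over all 10415 genes tested was -0.06. Of 29 other nucleic acid sensors and antiviral RNA binders, 17 were at least 1.5-fold higher and 0 that much lower, with a median of 1.22. Examples are Ifi205 at 4.67 and Oasl1 at 4.29, while G3bp1, a stress granule protein, was at 0.823. Of 20 adaptors and chaperones of the sensors, 2 were higher and 2 lower, with a median of 0.26. Myd88, the adaptor of Tlr7 and Tlr9, was at 1.71, and the endosomal proteases Ctsl and Ctsb were at 0.499 and 0.647. Of 16 kinases and transcription factors of interferon induction, 3 were higher and 0 lower, among them Irf7 at 4.0 and Irf1 at 2.99. Of 12 signalling genes below the interferon receptors, 4 were higher and 0 lower, with Stat2 at 3.48, while Ifngr1 was at 0.928.

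Genes that end the response or remove its ligands were divided. Of 19 inhibitors of sensing or of receptor signalling, 7 were higher and 1 lower in the monocyte and macrophage names. Usp18, which blocks signalling at IFNAR2, was at 3.63, and Nlrc3, a negative regulator of STING, was at 0.298 (93 and 21 UMIs). Of 15 nucleases and RNA editors, 3 were higher and 4 lower, with a median log2 ratio of -0.30. Samhd1, a dNTP hydrolase, was at 2.70 and Dnase1l3, a secreted DNase, at 4.13, while the lysosomal exonuclease Pld3 was at 0.536 and Rnase4 at 0.444. All 29 interferon-stimulated genes of the list were at least 1.5-fold higher, with a median of 1.67, Isg15 at 4.06 and Ifi44 at 5.30. The lists share genes, so their counts are not separate. Ifit1, Oasl2, Oas3 and Ddx60 are also among the other sensors and RNA binders. Isg15, Usp18 and Trim30a are also among the inhibitors, and Irf7 is among the transcription factors. With equal weights per name, an alternative added after the data were seen, 16 of the 29 were at least 1.5-fold higher and 0 lower, with a median of 0.62. The other sensors and RNA binders then had 14 higher, with a median of 0.57. The nucleases and editors then had 3 higher and 1 lower, with a median of -0.24, and the inhibitors 5 higher and 1 lower. Adaptors and chaperones then had 1 higher and 0 lower, so Ctsl and Ctsb were no longer past 1.5-fold. Kinases and transcription factors had 2 higher and 0 lower, as did the signalling genes. Over all genes tested in the class, 443 were then higher and 598 lower.

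The lists differed in size and in sign in the other classes. The median log2 ratio of the adaptors was -0.22 in the T cell names, and that of the nucleases was 0.26 in the NK names. Of the interferon-stimulated genes tested, 29 of 29 were past 1.5-fold in the dendritic cell names (median log2 ratio 1.43), 25 of 25 in the MDSC names (2.05), 25 of 29 in the T cell names (0.86) and 16 of 27 in the NK names (0.69). In the NK names 1 was that much lower, Ifitm3 at 0.640 (225 and 330 UMIs). With equal weights per name the counts were 28 in the dendritic cell names, 21 in the MDSC names (median 0.86), 24 in the T cell names and 16 in the NK names. Of all genes tested, 480 of 9792 were then higher and 468 lower in the dendritic cell names. In the MDSC names 556 of 4739 were higher and 324 lower. The numbers were 419 and 374 of 7818 in the T cell names, and 602 and 292 of 7176 in the NK names. M-MDSC 2 made up 36 of 726 MDSC cells in APOE2 and 190 of 797 in APOE4. In the pooled MDSC names Ifit3 was at 10.99, Zbp1 at 8.04 and Irf1 at 4.52. In the T cell names Rsad2 was at 2.65, Irf7 at 1.85 and Tank at 0.638. In the NK names Slfn5 was at 2.68. Ctsl, at 0.499 in the monocyte and macrophage names, was at 2.30 in the dendritic cell names (1873 and 3436 UMIs).

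**Figure D5:**
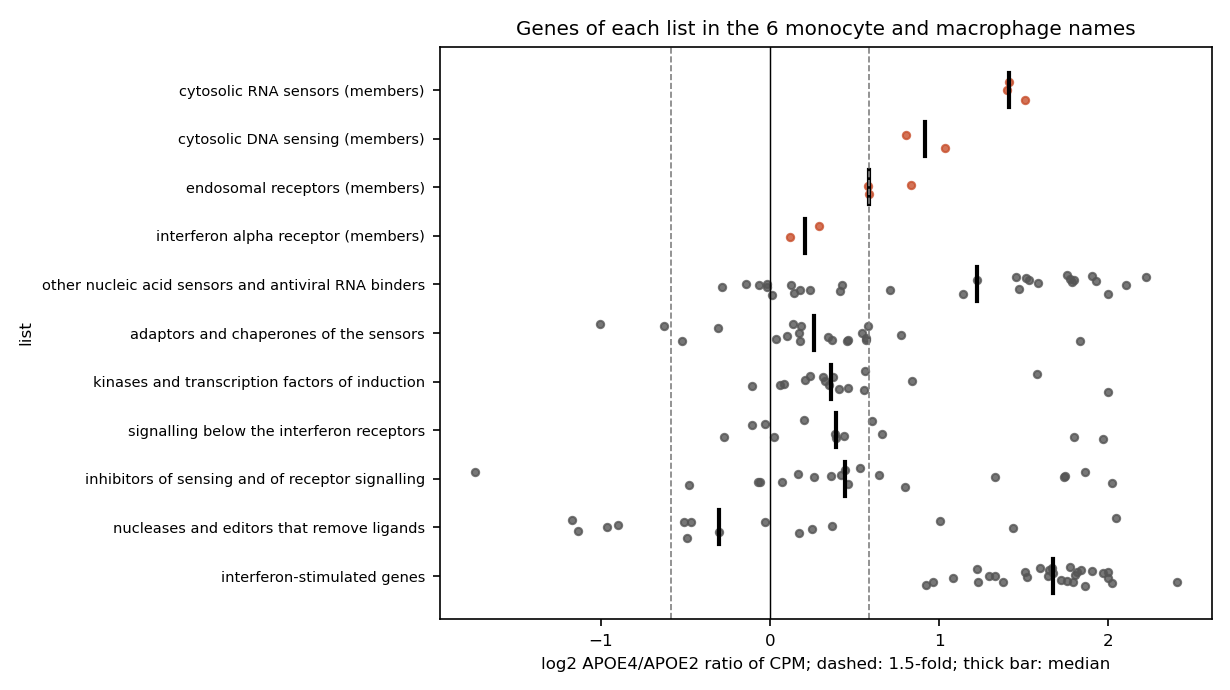
log2 APOE4/APOE2 ratio of CPM for the tested genes of each list in the 6 monocyte and macrophage names, with 1 point per gene, the members in orange, a bar at each list's median and dashed lines at 1.5-fold. The interferon-stimulated genes (median 1.67) and the 3 RNA sensors lie to the right of the line, and the receptor chains lie to the left of it.

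The ligands were almost unseen. The 20 type I and III interferon genes of the list summed to 2 UMIs in the APOE2 library and 12 in the APOE4 library, so none was tested. Ifnb1 had 0 and 7 UMIs: 6 came from 2 cells of Monocytes 2, of which 5 were in a single cell, and 1 came from Monocytes 1.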

How the data were processed

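Leukocytes of 2 libraries, 1 per genotype, were profiled with Chromium 3' v3 chemistry, per the labels' protocols. The authors deposited UMI counts per gene and barcode, written by Cell Ranger 3.0.1 per the file headers, on mm10 with Seurat 3.0.2 listed per the submitters' processing notes. Their deposited cell annotation gave the names, and its counts per cell are sums over genes seen in at least 5 barcodes. The annotation also gives the authors' percent of mitochondrial UMIs per cell. For alignment settings, annotation release and doublet treatment the answer is: not given in the sources used here. No doublet caller was run. UMIs were summed per name and library and divided by that sum's total to give CPM. No p-value was computed, since cells of a pool do not replicate a genotype. Poisson, conditional binomial and Clopper-Pearson 95% intervals cover counting error only.

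A ratio within a name needed 50 cells per library and 20 UMIs. A list gene needed 50 UMIs in the class, and 1.5-fold was the threshold. Cells were thinned to 1500 UMIs with seed 1, leaving out shallower cells. Named list genes were the 2 highest and 2 lowest ratios of a list by the interval bound nearest 1, from 100 UMIs upward. The 3 genes most like a member were taken among genes with at least 500 UMIs. Members and lists were chosen with earlier results of these data known. Gene positions are from GENCODE M21 (27722 of 27998 identifiers matched). Ratio and thinning code was tested on simulated data. Python 3.11.15, numpy 2.4.6, scipy 1.17.1, pandas 2.3.3 and matplotlib 3.10.9 were used. Alternatives covered scaling, filters, weights, depth and cells left out.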

Additional observations from a re-analysis of the deposited data

Results flagged for a closer look

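Tmem173 differed in direction between cell types under the same contrast: its APOE4/APOE2 ratio was 0.535 in CD8+ T cells and 1.64 in cDC 2, each with an interval that excludes 1. Tlr7 did so as well, at 0.471 in Monocytic DCs (56 and 15 UMIs) and 1.97 in Diverse (26 and 67 UMIs). With 1 library per genotype the difference between cell types was not tested in either case. Monocytic DCs scored 1.74 in APOE2 and 1.11 in APOE4 on monocyte or macrophage markers, and 2.65 and 1.34 on cDC2 markers. Diverse scored 2.27 and 0.953 on cDC2 markers, and 1.41 and 2.33 on T cell markers. The part of those markers in the Tlr7 ratios was not tested.

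Barcodes outside the annotation also held UMIs of the 10 genes, at a summed 278 CPM in the APOE2 library and 338 CPM in the APOE4 library, below the 421 and 673 CPM of the annotated cells.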

How the results depend on the processing

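Over all annotated cells, 85 of 110 alternative ratios moved by less than the counting interval. Median-ratio scaling, totals without ribosomal protein and mitochondrial genes, and leaving out the 5% deepest cells, Diverse, or shared barcodes moved none of the 10 ratios that far. The cause of the other moves was not tested. With the same weight per name the ratios were Ddx58 1.61, Ifih1 1.87, Dhx58 1.75, Tmem173 1.18, Tlr3 1.16, Tlr7 1.21 and Ifnar1 1.12. With APOE2 shares of UMIs, added after seeing the data, they were Ddx58 1.95, Ifih1 2.10, Dhx58 1.98, Tlr3 1.25, Tlr7 1.18 and Ifnar1 1.07. As a mean over cells they were Ddx58 2.39, Tmem173 1.26, Tlr7 1.32, Tlr9 1.10 and Ifnar2 1.09. In thinned cells they were Ifih1 2.45, Mb21d1 1.67, Tmem173 1.27, Tlr7 1.00 and Tlr9 0.513, the last reversed. Cells under 5% mitochondrial UMIs gave Tlr7 1.65, and leaving out Monocytes 2, M-MDSC 2 and NK cluster 1 (added) gave Tmem173 1.31. Within names, 780 alternative ratios stayed inside the counting interval, 52 moved outside it and 3 reversed. Thinning alone moved 43 of these, reversed 2 and left 91 inside. For the classes, thinning moved 15 ratios, reversed 1 and left 25 inside, and equal weights moved 16 and left 26 inside.

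Other reversals were, in thinned cells, Ifih1 in Mø cluster 2 (0.944), Tlr3 in Diverse (0.623) and Ifnar1 in the NK names (0.985). Dhx58 in pDCs reversed to 0.724 in cells under 5% mitochondrial UMIs, a filter that left out most pDCs. Ifih1 in the NK names reversed to 0.996 without NK cluster 1, and Ifnar1 in the monocyte and macrophage names to 0.983 at APOE2 shares. Equal weights per name (added for counts) left 3 of 10 members past 1.5-fold in the monocyte and macrophage names in place of 7. With those weights, 443 of 10415 genes there were that much higher and 598 that much lower. A 2-fold threshold left 4 of 10 members higher in the monocyte and macrophage names in place of 7. It left 0 higher and 0 lower in the T cell names in place of 3 and 1, and 0 in the NK names in place of 1. The share of all genes past 2-fold was not counted. Scaling by the median gene shifted log2 ratios by at most 0.09. Which genes were closest across names also depended on the setting. With log2(CPM + 1), Tmem160 came at place 134 for Tmem173, Sept3 at 55 for Tlr3 and Tagap at 24 for Ifnar1. In the APOE4 library alone, Commd4 came at place 17 for Tmem173 and Tagap at 38 for Ifnar1. In the APOE2 library alone, Eif2ak2 came at place 12 for Dhx58. Gbp7 for Ddx58, Ifit2 for Ifih1 and Lair1 for Ifnar2 stayed first in each setting. No paired analysis was possible because each genotype has 1 library, and for the same reason none could be left out. Depth limits Tlr9, Tlr7 in thinned cells and any name with under 50 cells.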

Other observations

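Names too small for a ratio held some of the extreme levels. In Mast cells the balance of the receptor chains was the reverse of that in T cells: Ifnar1 made up 17.1% (7.15 to 32.1) of the UMIs of both chains in the APOE2 library, on 7 and 34 UMIs in 48 cells. NK cluster 1 held Ifih1 at 92.4 CPM (20 UMIs in 33 cells) and 246 CPM (125 UMIs in 113 cells), while NK cluster 2 held it at 19.9 and 19.8 CPM. M-MDSC 2 held Ifih1 at 273 CPM (17 UMIs) and 428 CPM (154 UMIs), and M-MDSC 1 at 15.9 and 76.4 CPM. Both of these small names were more numerous in the APOE4 library, at 33 and 113 cells and at 36 and 190 cells. Skin resident Mø, with 47 and 8 cells, held Ddx58 at 34 and 119 CPM on 34 and 24 UMIs.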
